A study of Arabidopsis thaliana with 15 samples.

Results

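Chloroplast-encoded loci are the genes of the circular chloroplast genome, whose identifiers in Arabidopsis thaliana start with ATCG. All loci with such an identifier were taken, which gave 133 of the 33602 loci in the count tables: 88 protein-coding, 8 ribosomal RNA (rRNA) and 37 transfer RNA (tRNA) loci. The 15 libraries came from Col-0 seedlings labelled 2 weeks old, raised at 22 °C under constant white light, and were wild type or homozygous for the eds4 mutation. EDS4 encodes the nucleoporin NUP205. In a profiling experiment, RNA of whole seedlings was purified on columns, with 4 wild type and 3 eds4 libraries. In a distribution experiment, phenol-extracted RNA came either from whole seedlings, here called total RNA, or from nuclei sorted by fluorescence, with 2 libraries of each kind in each genotype. The library protocol in the labels has a polyA purification for all samples, while the molecule of the nuclei is labelled nuclear RNA. No label says that replicates were separate cultures, so the p-values cover the spread among these samples, which may be technical.

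As background, the chloroplast genome encodes core subunits of the photosynthetic complexes, the large subunit of Rubisco, part of the plastid ribosome and the core of a bacterial-type RNA polymerase, while the remaining subunits are encoded in the nucleus and imported. Many chloroplast transcripts are cut from polycistronic precursors and, as in bacteria, a poly(A) tail added to them marks them for decay by plastid ribonucleases. A count in such libraries is therefore a level in poly(A)-selected RNA, not in the cell. In RNA from a mixture of cells, fewer green cells and less RNA per cell cannot be told apart.

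EDS4 (AT5G51200) held 61.6 to 83.8 counts for each 1000000 library counts (CPM) in wild type profiling seedlings and 32.2 to 44.3 CPM in eds4 seedlings, and 91.9 and 72.8 CPM against 37.1 and 28.1 CPM in total RNA, with no overlap. In nuclei it held 51.2 and 64.8 CPM in the wild type and 67.5 and 70.4 CPM in eds4, so it was not lower in the nuclei labelled eds4, and every direction drawn between nuclei rests on the labels alone. Library totals were 37277300 to 51059295 counts in the profiling experiment, 22805360 to 31745372 in total RNA and 12393243 to 21786898 in nuclei.

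Some loci cannot be told apart by their counts. The chloroplast genome of 154478 bp holds a large inverted repeat, in which 36 of the 133 loci form 18 pairs of identical sequence. Summed over the 15 libraries, the copies' counts differed by at most 0.963% of the larger count in the 17 pairs with over 10 counts, and 9 pairs were identical in all 15 libraries, so such reads appear at both copies. Single-copy values are given below, whereas shares of counts include both copies. Elsewhere in the genome, 20 of the 133 loci have a stretch of at least 80 bases with at least 95% identity, 9 of them in the mitochondrion. One covers bases 497 to 1005 of the 23S rRNA gene at 99.6% identity, and another 573 bases of rbcL at 97.2%.

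Stretches of 8 loci are shown because an internal run of A could be retained by poly(A) selection. Each line gives the A-richest 20 bases of the locus in capitals with the bases around them, 5′ to 3′ on the coding strand, from RefSeq's TAIR10.1 chloroplast. The first 6 have high counts, ndhD had the lowest fold change between the experiments in the wild type beside ndhB, and rpoA, a polymerase subunit, holds the longest run of A among 87 loci of at least 100 bp, counting 1 copy of each pair.
rrn23S (chrPt:104865-104924, plus strand): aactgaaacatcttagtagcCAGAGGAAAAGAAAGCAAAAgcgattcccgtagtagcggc
rrn16S (chrPt:101840-101899, plus strand): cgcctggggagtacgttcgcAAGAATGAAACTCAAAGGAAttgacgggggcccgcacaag
psbA (chrPt:685-744, minus strand): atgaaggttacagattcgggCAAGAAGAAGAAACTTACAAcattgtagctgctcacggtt
rbcL (chrPt:54958-55005, plus strand): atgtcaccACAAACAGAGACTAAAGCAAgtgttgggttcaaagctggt
psaB (chrPt:39070-39129, minus strand): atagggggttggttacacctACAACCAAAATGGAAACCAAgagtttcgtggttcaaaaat
rpoB (chrPt:25662-25721, minus strand): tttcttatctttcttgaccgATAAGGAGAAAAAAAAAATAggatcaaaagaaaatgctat
ndhD (chrPt:116236-116295, minus strand): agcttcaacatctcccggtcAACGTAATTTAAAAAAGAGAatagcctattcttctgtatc
rpoA (chrPt:78072-78131, minus strand): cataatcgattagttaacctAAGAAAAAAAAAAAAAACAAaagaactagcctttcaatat

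Loci with high counts held short as well as long runs of A. The longest run was 7 bases in rrn23S, 5 in rrn16S, 4 in psbA, 5 in rbcL, 5 in psaB and 10 in rpoB, against a median of 6 over the 87 loci and 14 in rpoA. Across these loci, Spearman's rho between the longest run and CPM per kb of exon was -0.43 in wild type profiling seedlings and -0.30 in wild type total RNA. Over the 78 protein-coding loci among them it was -0.41 and -0.30. Loci share libraries and are not independent replicates, and a longer locus has more chances to hold a long run. Runs were sought over the whole span of a locus, introns included, whereas levels are per kb of exon.

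Ribosomal RNA made up nearly all chloroplast counts. Chloroplast loci held 0.781, 0.480, 0.329 and 0.395% of counts in wild type seedlings and 0.477, 0.366 and 0.477% in eds4 seedlings. They held 0.661 and 0.731% in wild type total RNA, 0.632 and 2.05% in eds4 total RNA, 1.33 and 4.21% in wild type nuclei and 0.543 and 0.259% in nuclei labelled eds4. The rRNA loci took 91.0 to 92.1% of these counts in the profiling experiment, 96.3 to 98.5% in total RNA and 99.4 to 99.7% in nuclei, and the 3 kinds of sample did not overlap. With 1 copy of each repeat pair, the share kept its direction in all 5 comparisons of groups.

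Protein-coding loci followed another order. Their share of all counts was 0.0479, 0.0335, 0.0237 and 0.0278% in wild type seedlings and 0.0312, 0.0259 and 0.0353% in eds4 seedlings. It was 0.0237 and 0.0184% in wild type total RNA and 0.0163 and 0.0295% in eds4 total RNA. In nuclei it was 0.00385 and 0.0112% in the wild type, from 754 and 1719 counts, and 0.00325 and 0.000839% in eds4, from 708 and 104 counts. Every nuclei library lay below every whole-seedling library. The mean of total RNA was 2.79-fold that of nuclei in the wild type and 11.2-fold in eds4 (exact two-sided permutation test, p = 0.333 for each, the smallest that 2 libraries against 2 allow).

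**Figure D1:**
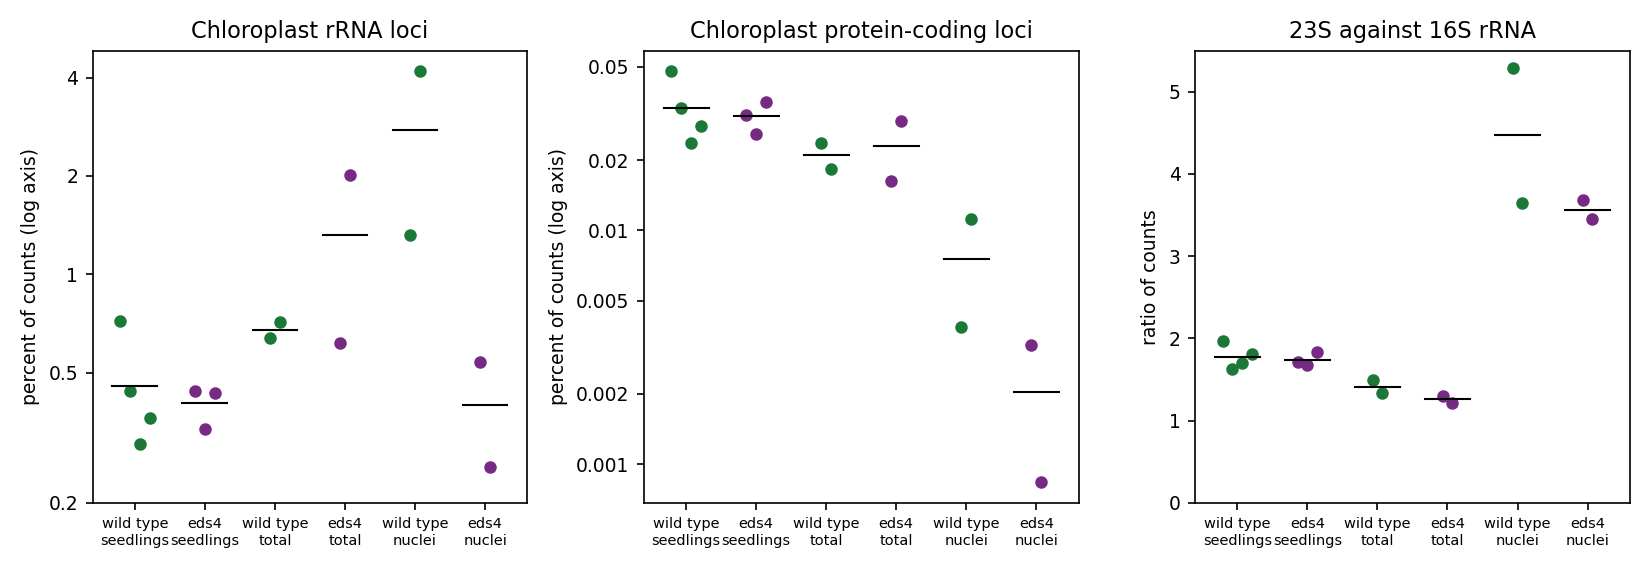
Share of all counts in chloroplast rRNA loci (left, log axis) and protein-coding loci (middle, log axis), and the ratio of 23S to 16S rRNA counts (right), by group; points are libraries (green wild type, purple eds4) and lines are group means. The protein-coding share of the 4 nuclei libraries lies below all others, and their ratio of 23S to 16S counts lies above all others.

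Across all chloroplast loci, seedlings of the genotypes overlapped, at 0.496% ± 0.200 (SD, n = 4) of counts in the wild type and 0.440% ± 0.0638 (SD, n = 3) in eds4 (exact two-sided permutation test, p = 0.800000; 1.00000 adjusted over 40 comparisons; smallest possible 0.0571). Without wild type replicate 1 the direction turned, to an eds4 share higher by 0.0386 percentage points. Between nuclei and total RNA the share was higher by 2.07 percentage points in the wild type and differed by -0.939 in eds4, without overlap in either (exact two-sided permutation test, p = 0.333 for each).

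Among single loci the rRNA genes of the large and small subunits led. The 23S gene (rrn23S, ATCG00950 and ATCG01180), whose RNA carries the peptidyl transferase centre, held 2379, 1356, 950.0 and 1163 CPM in wild type seedlings and 1379.9, 1047 and 1403 CPM in eds4 seedlings. It held 1902 and 2031 CPM in wild type total RNA, 1738 and 5521 CPM in eds4 total RNA, 5560.3 and 16475 CPM in wild type nuclei and 2124 and 1002 CPM in nuclei labelled eds4. The 16S gene (rrn16S, ATCG00920 and ATCG01210), the small-subunit rRNA, held 1207, 832, 559 and 643 CPM in wild type seedlings, 806, 627 and 765 CPM in eds4 seedlings, 1277 and 1526 CPM in wild type total RNA, 1335 and 4557 CPM in eds4 total RNA, 1050.2 and 4524 CPM in wild type nuclei and 577 and 290.2 CPM in nuclei labelled eds4. Replicate 2 was the higher library of eds4 total RNA and of wild type nuclei for both.

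The balance of 23S and 16S differed between kinds of sample. Their ratio of counts was 1.63 to 1.97 in wild type seedlings, 1.67 to 1.83 in eds4 seedlings, 1.49 and 1.33 in wild type total RNA and 1.302 and 1.21 in eds4 total RNA. In nuclei it was 5.29 and 3.64 in the wild type and 3.68 and 3.45 in eds4. All 4 nuclei libraries lay above all 11 whole-seedling libraries. The mean in nuclei was 3.17-fold that of total RNA in the wild type and 2.84-fold in eds4 (exact two-sided permutation test, p = 0.333 for each). Parts of the 23S gene have near-identical stretches in the mitochondrion and on chromosome 2. Counts at mitochondrial loci do not bound the reads of such stretches entered at rrn23S, and their part in the ratio was not tested.

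Among protein-coding loci psbA and rbcL had the highest counts. psbA (ATCG00020), which encodes the D1 reaction centre protein of photosystem II, held 76.0, 54.8, 43.6 and 47.4 CPM in wild type seedlings and 55.1, 45.2 and 58.7 CPM in eds4 seedlings. rbcL (ATCG00490), the catalytic large subunit of Rubisco, held 49.5, 33.2, 23.04 and 26.4 CPM in wild type seedlings and 30.1, 24.9 and 30.7 CPM in eds4 seedlings. The genotypes overlapped at both loci. Together they took 25.3 to 28.1% of the protein-coding chloroplast counts in the profiling experiment and 41.8 to 47.7% in total RNA, without overlap. Per kb of exon, psbA was the highest protein-coding locus in wild type seedlings and in wild type total RNA, with mean levels of 52.2 and 57.4 CPM. Small photosystem loci came close to or above rbcL on this scale: psbJ at 23.3 and psaJ at 20.5 CPM against 22.9 CPM for rbcL in wild type seedlings, and psaJ at 25.0 against 22.2 CPM in wild type total RNA.

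The other leading loci encode further core proteins. psaB (ATCG00340) and psaA (ATCG00350), the reaction centre pair of photosystem I, held 11.96 to 26.8 and 8.77 to 17.98 CPM in wild type seedlings. psbC (ATCG00280), the CP43 antenna protein of photosystem II, held 8.40 to 29.3 CPM there, and rpoB (ATCG00190), the beta subunit of the plastid-encoded RNA polymerase, 14.6 to 27.0 CPM. atpB (ATCG00480), the beta subunit of the ATP synthase, held 6.71 to 10.9 CPM, and rpl2 (ATCG00830 and ATCG01310), a ribosomal protein of the large subunit, 7.46 to 13.7 CPM. ndhB (ATCG00890 and ATCG01250), a membrane subunit of the NDH complex of cyclic electron flow, held 7.19 to 21.99 CPM, petB (ATCG00720), cytochrome b6, 2.52 to 6.19 CPM, and clpP1 (ATCG00670), the proteolytic subunit of the Clp protease, 2.07 to 2.79 CPM. Replicate 1 was the highest wild type library for psbA, rbcL, psaB, psaA, psbC, rpoB, rpl2, ndhB and petB, as it was for the chloroplast share.

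**Figure D2:**
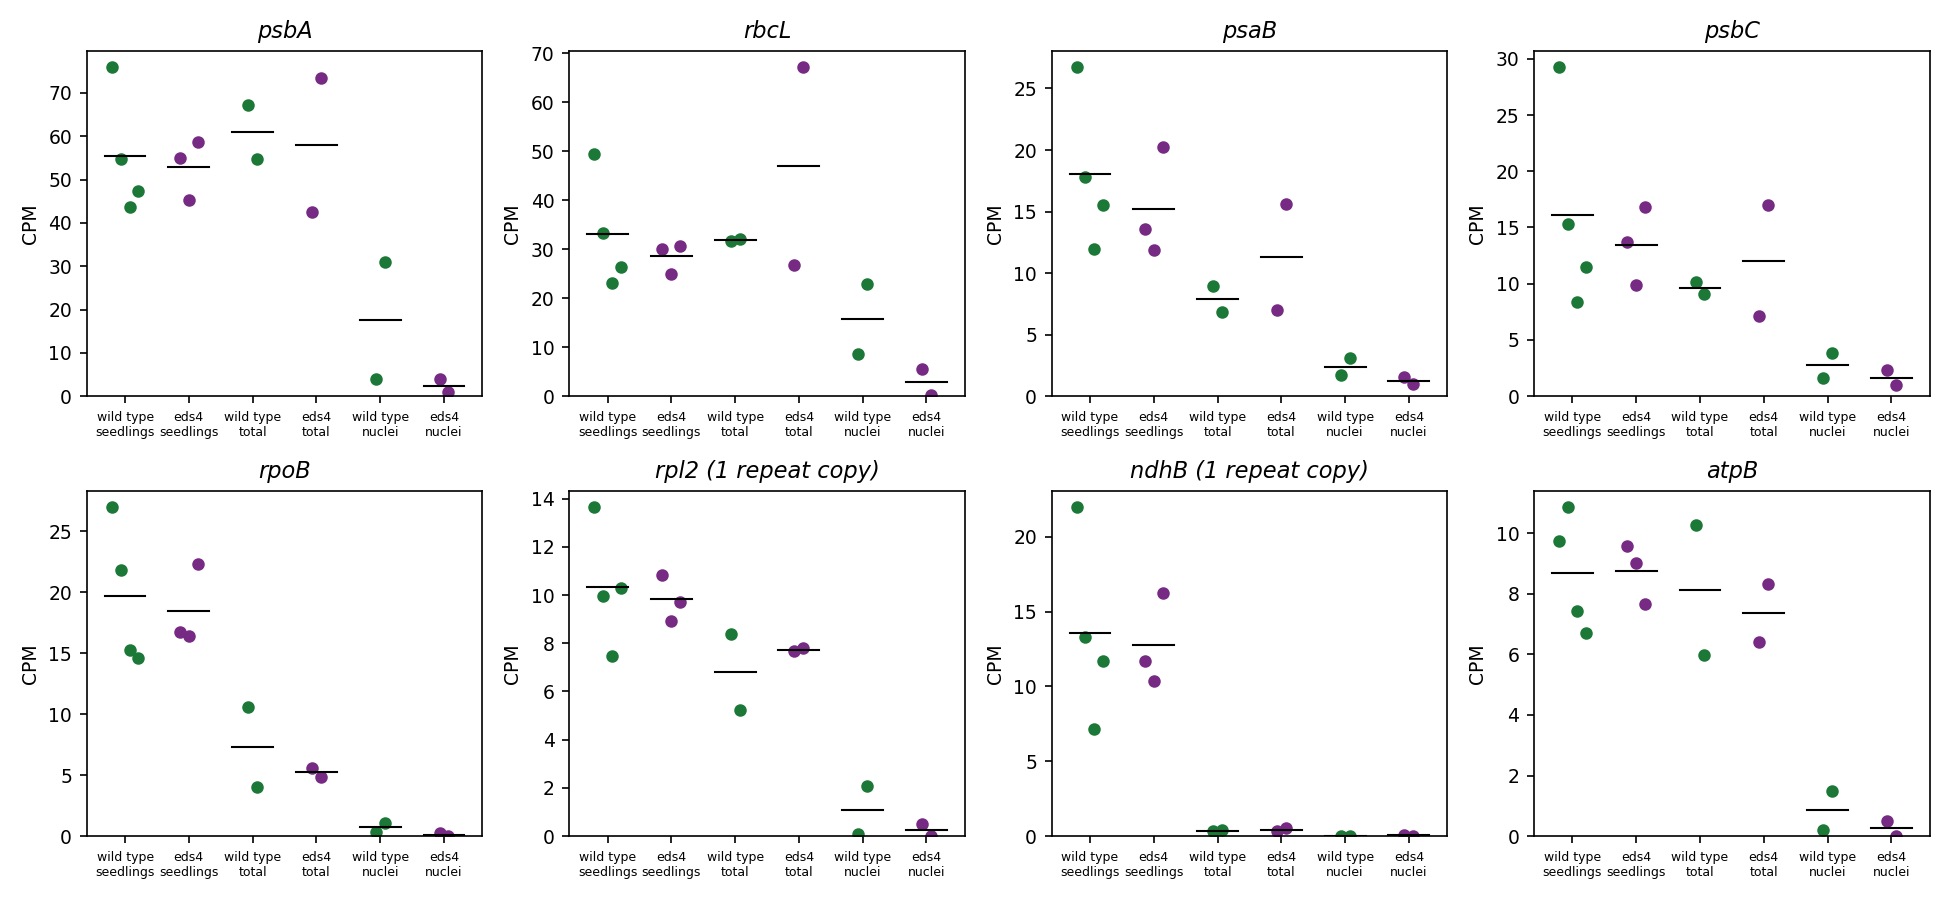
CPM on library totals of 8 leading protein-coding loci by group; points are libraries (green wild type, purple eds4), lines are group means, and each panel has its own axis from 0. psbA and rbcL are as high in total RNA as in profiling seedlings, whereas ndhB is at 0.526 CPM or less in total RNA.

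No chloroplast locus passed the test between eds4 and wild type seedlings. Of 105 loci that passed the filter on low counts, 0 were called at an adjusted p under 0.05 and 0 had an unadjusted p under 0.05 by edgeR's quasi-likelihood test, against 3559 of all 22202 loci tested, where 1.34% of all loci tested were called (0.757% higher and 0.581% lower in eds4). DESeq2, without that filter, called 0 of 133, with 0 at an unadjusted p under 0.05, beside 1011 called of all 26604 loci. In edgeR the fitted log2 fold change was negative at 83 of the 105 loci, with a median of -0.22 against 0.00 for all loci tested. Without wild type replicate 1 the median turned to 0.04, and scaled on chloroplast loci alone it was -0.04. The fitted value was -0.14 (SE 0.19) for psbA, -0.29 (SE 0.24) for rbcL, -0.33 (SE 0.28) for psaB, -0.17 (SE 0.22) for rpoB and -0.27 (SE 0.30) for rrn23S.

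The nuclear-encoded counterparts were read beside them. Of 33 nuclear genes for subunits of the same plastid complexes, 0 were called by edgeR and 14 had an unadjusted p under 0.05, beside 3559 of all 22202 loci, with a median log2 fold change of -0.28. Of 20 nuclear genes for the plastid transcription machinery 1 was called, lower in eds4, beside 0.581% of all loci tested. It was SIG5, a sigma factor that directs the plastid-encoded polymerase to a light-responsive promoter of psbD. SIG5 held 54.6, 62.3, 47.1 and 55.1 CPM in wild type seedlings and 34.5, 40.2 and 35.6 CPM in eds4 seedlings, without overlap, and fell by 0.65 (SE 0.11) on the log2 scale (edgeR, adjusted p = 0.0301). psbD (ATCG00270), the D2 reaction centre protein, held 12.5, 5.42, 3.62 and 5.17 CPM against 5.82, 3.97 and 6.59 CPM, and its log2 fold change of -0.37 (SE 0.40) did not pass (edgeR, adjusted p = 0.693). Of 4 nuclear genes for plastid ribonucleases 0 were called by edgeR, with 1 at an unadjusted p under 0.05. In total RNA SIG5 held 12.1 and 7.09 CPM in the wild type and 8.80 and 3.64 CPM in eds4, so the genotypes overlapped.

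In wild type nuclei against total RNA, chloroplast loci were called lower about as often as all loci tested. Of the 133 loci, 49 held 0 counts in wild type nuclei and 10 in wild type total RNA. The filter kept 66 loci, and a locus kept through total RNA alone had to be lower in nuclei, so counts over these loci only describe them. Of them 2 rose, both copies of rrn23S, and 10 fell, which is 3.03 and 15.2% of them. Of all loci tested 30.6% were called, 15.1% higher and 15.6% lower. The median log2 fold change was -1.301 against 0.00 for all loci tested, and -1.301 with the 8 loci at 0 counts in nuclei placed at their bound. Without replicate 2 of wild type nuclei the fitted median was -4.13. By role, 1 of 9 in photosystem II, 3 of 4 in photosystem I, 0 of 3 in the cytochrome b6f, 1 of 6 in the ATP synthase, 0 of 4 in the NDH complex, 1 of 4 in the plastid RNA polymerase, 3 of 15 in ribosomal proteins and 1 of 5 in transfer RNAs fell.

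rrn23S (ATCG00950) differed by 2.37 (SE 0.66; edgeR, adjusted p = 0.0221) on the log2 scale in wild type nuclei. rrn16S (ATCG00920) differed by 0.88 (SE 0.70) and was not called (edgeR, adjusted p = 0.371). The call at rrn23S was lost without either library of total RNA or without replicate 2 of the nuclei, which held 16475 CPM against 5560.3 CPM in replicate 1.

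Of the photosystem loci, psaB held 8.91 and 6.87 CPM in wild type total RNA and 1.68 and 3.07 CPM in nuclei, a log2 fold change of -1.86 (SE 0.53; edgeR, adjusted p = 0.0258). psaA went from 11.3 and 8.76 CPM to 1.48 and 4.19 CPM, a log2 fold change of -1.95 (SE 0.56; edgeR, adjusted p = 0.0251), and psbC from 10.14 and 9.11 CPM to 1.63 and 3.86 CPM, a log2 fold change of -1.94 (SE 0.60; edgeR, adjusted p = 0.0348). In each case both nuclei libraries lay below both libraries of total RNA. psaJ (ATCG00630), a small photosystem I subunit, held 4.35 and 2.41 CPM in total RNA and 0 counts in nuclei, at least 39.4-fold lower against a floor of 3 counts over the group.

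Outside the photosystems, rpoB went from 10.6 and 4.01 CPM to 0.306 and 1.11 CPM, a log2 fold change of -3.48 (SE 0.90; edgeR, adjusted p = 0.0163). atpB went from 10.3 and 5.97 CPM to 0.204 and 1.504 CPM, a log2 fold change of -3.38 (SE 0.98; edgeR, adjusted p = 0.0265). The ribosomal protein locus rpl16 (ATCG00790) went from 3.09 and 2.12 CPM to 0 and 0.262 CPM, and its neighbours rpl14 (ATCG00780) and rpl22 (ATCG00810) held 0 counts in wild type nuclei, at least 12.01-fold and 19.4-fold lower. rpl22 overlaps rps3, psbC overlaps psbD and atpB overlaps atpE, so reads of such pairs may be shared. The serine tRNA locus trnS.1 (ATCG00090) held 1.197 and 2.50 CPM in wild type total RNA and 0 counts in all 4 nuclei libraries, at least 21.4-fold lower in the wild type and 18.2-fold lower in eds4.

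psbA and rbcL did not pass in the wild type. psbA held 67.2 and 54.7 CPM in total RNA and 3.98 and 31.1 CPM in nuclei, a log2 fold change of -1.91 (SE 0.79; edgeR, adjusted p = 0.0936). rbcL held 31.8 and 32.1 CPM in total RNA and 8.57 and 22.9 CPM in nuclei, a log2 fold change of -1.14 (SE 0.83; edgeR, adjusted p = 0.328). The nuclei lay below total RNA at both loci, and replicate 2, the library with the most chloroplast rRNA, was the higher of the nuclei. Fewer loci were called without either library of total RNA or without replicate 1 of the nuclei. Such a fit leaves 1 library in its group, and calls over all loci fell as well. Counting 1 copy of each pair, 0 of the 11 called loci kept its call whichever library was left out.

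In nuclei labelled eds4 against total RNA, the loci that fell included psbA, rbcL and the 16S rRNA. Of the 133 loci, 66 held 0 counts in nuclei labelled eds4 and 18 in eds4 total RNA. Of the 66 tested, 0 rose and 21 fell, where 29.6% of all loci tested were called, 15.6% higher and 14% lower. The median log2 fold change was -3.40, or -3.21 with the 15 loci at 0 counts in nuclei at their bound, against 0.09 for all loci tested. The fitted median was -6.48 without replicate 1 of the nuclei labelled eds4 and -2.86 without replicate 2 of eds4 total RNA. By role, 4 of 9 in photosystem II, 2 of 4 in photosystem I, 2 of 3 in the cytochrome b6f, 3 of 6 in the ATP synthase, 0 of 4 in the NDH complex, 1 of 4 in the plastid RNA polymerase, 4 of 15 in ribosomal proteins and 1 of 5 in transfer RNAs fell. The 7 loci called in both genotypes, 58.3% of the wild type calls and 33.3% of the eds4 calls, were trnS.1, rpoB, psbC, psaB, psaA, atpB and rpl22, all lower in nuclei.

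psbA held 42.5 and 73.4 CPM in eds4 total RNA and 3.99 and 0.888 CPM in nuclei labelled eds4, a log2 fold change of -4.76 (SE 0.92; edgeR, adjusted p = 0.00383). rbcL went from 26.8 and 67.1 CPM to 5.46 and 0.161 CPM, the last of these from 2 counts, a log2 fold change of -4.22 (SE 0.95; edgeR, adjusted p = 0.00845). Both nuclei libraries lay below both libraries of total RNA at each locus. psbD went from 3.39 and 5.88 CPM to 0.184 and 0.323 CPM (log2 fold change -4.48, SE 0.82), psbC from 7.09 and 17.0 CPM to 2.29 and 0.968 CPM (log2 fold change -3.10, SE 0.63) and psbB (ATCG00680), the CP47 antenna protein, from 5.10 and 11.4 CPM to 2.52 and 0.323 CPM (log2 fold change -2.73, SE 0.82). In photosystem I, the log2 fold change was -3.39 (SE 0.57) for psaB and -2.997 (SE 0.59) for psaA.

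ATP synthase loci were low in nuclei labelled eds4. atpB went from 6.43 and 8.33 CPM to 0.505 and 0 CPM, a log2 fold change of -4.91 (SE 1.09; edgeR, adjusted p = 0.00768). atpH (ATCG00140), the c subunit of the membrane ring, held 1.23 and 2.59 CPM in total RNA and 0 counts in nuclei, at least 20.5-fold lower, and atpE (ATCG00470), the epsilon subunit, went from 2.56 and 4.12 CPM to 0.0918 and 0 CPM. The 6 loci of this complex together held 107 and 76 counts in nuclei of the wild type and 35 and 0 in those of eds4.

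Loci of gene expression and of the cytochrome b6f complex fell as well in eds4. rpoB went from 5.60 and 4.82 CPM to 0.229 and 0 CPM (log2 fold change -5.48, SE 1.06), and rpl2 (ATCG00830) from 7.66 and 7.81 CPM to 0.505 and 0 CPM (log2 fold change -4.99, SE 1.25). With 0 counts in nuclei labelled eds4, rps14 (ATCG00330), a small-subunit ribosomal protein cotranscribed with psaA and psaB, was at least 30.6-fold lower, clpP1 20.5-fold, petA (ATCG00540, cytochrome f) 10.3-fold and petB 9.43-fold. rpl22 went from 1.08 and 1.93 CPM to 0 and 0.161 CPM. rrn16S (ATCG00920) differed by -3.02 (SE 0.75; edgeR, adjusted p = 0.0134), while rrn23S (ATCG00950) differed by -1.47 (SE 0.64) and was not called (edgeR, adjusted p = 0.111). The call at rrn16S was lost without replicate 2 of total RNA or of the nuclei. Fewer chloroplast loci were called without replicate 2 of total RNA, and calls over all loci fell as well. Of 19 called loci, counting 1 copy of each pair, 11 kept their call whichever library was left out, among them psbA, rbcL, psaA, psaB, rpoB, atpB and rpl2.

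**Figure D3:**
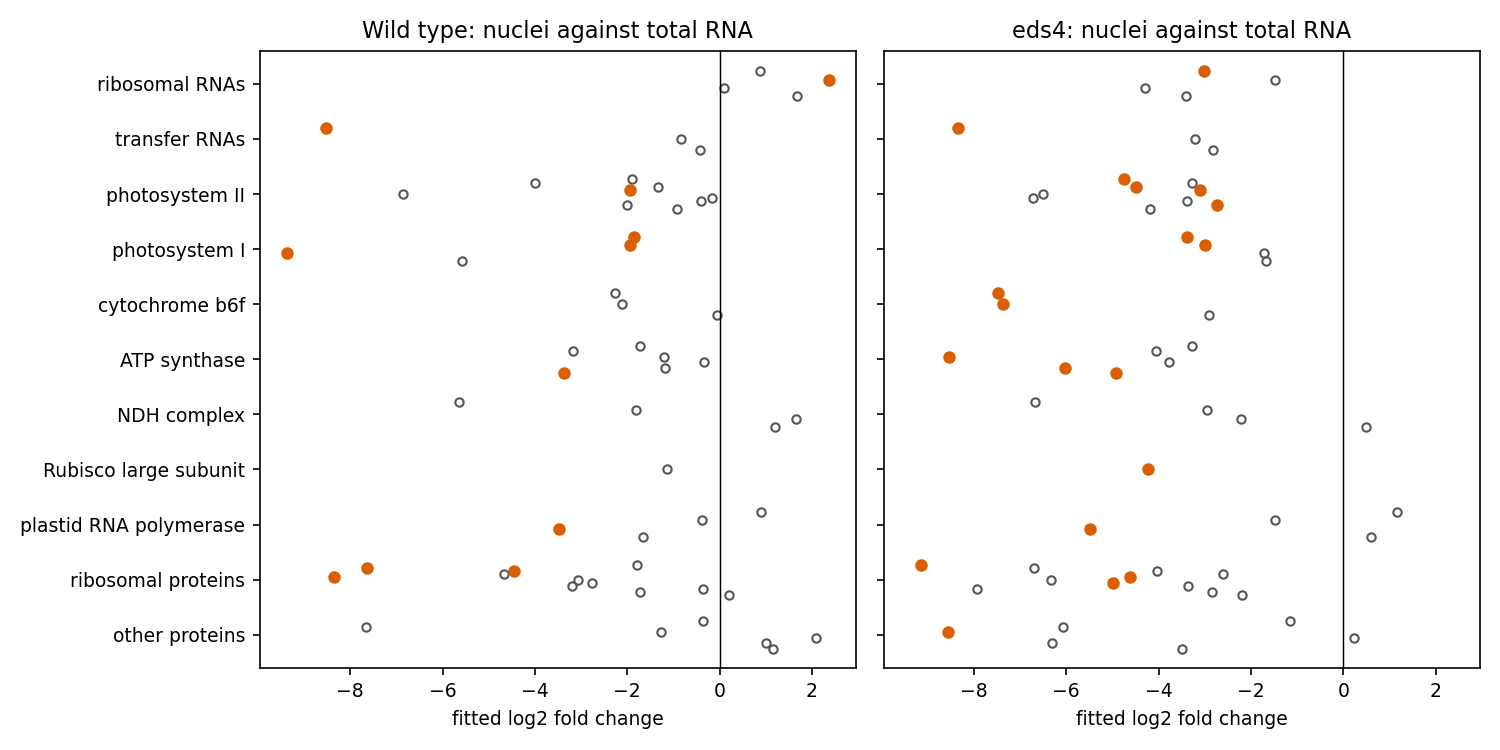
Fitted log2 fold change of nuclei against total RNA for each tested chloroplast locus by role, in the wild type and in eds4, with 1 copy of each repeat pair; filled orange points had an adjusted p under 0.05 and open points did not. The rRNA loci lie above 0 in the wild type and below 0 in eds4, most other loci lie below 0 in both, and fitted values of loci with 0 counts in nuclei are no bound.

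The nuclear genes for the partner subunits also fell in nuclei. In the wild type 33 of 33 fell, with a median log2 fold change of -2.24, and in eds4 32 of 33, with a median of -2.26. Of all loci tested 15.6% fell and 15.1% rose in the wild type, and 14% fell and 15.6% rose in eds4. PSAG, a photosystem I subunit, went from 1902 and 1922 CPM to 284 and 295 CPM in the wild type and from 2209.6 and 1949 CPM to 328 and 403 CPM in eds4. Of the 20 genes of the transcription machinery 9 fell and 0 rose in wild type nuclei, and 5 fell and 1 rose in nuclei labelled eds4. TRXz, a thioredoxin of the polymerase complex, had log2 fold changes of -2.47 in the wild type and -1.93 in eds4. Of the 4 plastid ribonuclease genes 3 fell and RNaseE rose in both genotypes, by 0.90 (SE 0.22) in the wild type and 0.88 (SE 0.22) in eds4 on the log2 scale.

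Other signals of the nuclei did not all follow their chloroplast rRNA. In nuclei labelled eds4, replicate 2 was lower than replicate 1 in chloroplast rRNA, at 0.258 against 0.540% of counts, but higher in nuclear rRNA. Nuclear rRNA loci held 2.79 and 11.2% of counts in wild type nuclei and 1.303 and 1.59% in nuclei labelled eds4, against 0.609 to 1.504% in total RNA. Mitochondrial loci held 0.0236 and 0.203% in wild type nuclei and 0.0135 and 0.00789% in nuclei labelled eds4. Replicate 2 of wild type nuclei was the highest library in chloroplast, nuclear and mitochondrial signals, and replicate 2 of eds4 total RNA the highest whole-seedling library in all of them. The 8 root hair and endodermis markers summed to 81.3 and 85.9 CPM in wild type nuclei, 59.4 and 65.4 CPM in nuclei labelled eds4 and 27.9 to 46.2 CPM in total RNA. Members differed. The endodermis marker SCR went from 34.0 and 28.5 CPM in total RNA to 25.0 and 21.8 CPM in wild type nuclei. In eds4 it went from 24.2 and 31.2 CPM to 42.5 and 41.9 CPM. CASP1, CASP2 and MYB36 of the endodermis were higher in wild type nuclei. The root hair markers EXPA7, EXPA18, COBL9 and RHD6 each held at most 1.57 CPM in any nuclei library. Of 7 markers tested 2 rose in wild type nuclei and 0 in nuclei labelled eds4, beside 15.1 and 15.6% of all loci tested. RHD6 held 0 counts in all 4 nuclei libraries. The part of these signals in the chloroplast values was not tested.

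Between the genotypes, edgeR called no chloroplast locus in total RNA or in nuclei. In total RNA, edgeR called 0 of 66 with 0 at an unadjusted p under 0.05. Of all loci tested 0.00465% were called by edgeR (0% higher and 0.00465% lower). DESeq2, without the filter on low counts, called 0 of 127 there, beside 16 of all 28308 loci. In nuclei, edgeR called 0 of 66 with 19 at an unadjusted p under 0.05, beside 3039 of all 21484 loci tested. Of all loci tested 0.363% were called by edgeR (0.312% higher and 0.0512% lower). DESeq2, without that filter, called 9 of 127, all lower in eds4, beside 837 of all 28308 loci. The direction rests on the labels of the nuclei, in which EDS4 was not lower under the label eds4. The log2 difference in nuclei was -2.99 (SE 0.67; edgeR, adjusted p = 0.0999) for rrn23S (ATCG00950), -2.86 (SE 0.74) for rrn16S (ATCG00920) and -2.94 (SE 0.87) for psbA. Of the 66 loci 54 had a negative and 7 a positive value, among the latter 2 of 4 in photosystem I.

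The change of the nuclear-to-total ratio between genotypes was tested as an interaction. Of 66 loci edgeR called 0, with 15 at an unadjusted p under 0.05 beside 1252 of all 21484, and it called 0% of all loci tested. DESeq2, without the filter on low counts, called 0 of 127, with 19 at an unadjusted p under 0.05. It called 40 of all 28308 loci. The interaction rests on the same labels. The fitted change was -3.84 (SE 0.92; edgeR, adjusted p = 0.750) for rrn23S (ATCG00950) and -3.90 (SE 1.02; edgeR, adjusted p = 0.771) for rrn16S (ATCG00920). The larger number of calls in nuclei labelled eds4 is therefore no tested difference between genotypes. These comparisons share libraries, and their values are set side by side only.

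Between the experiments, chloroplast loci of whole seedlings were called less often than all loci tested, and more often lower than higher. This comparison was added after the counts had been seen, and experiment, extraction and depth cannot be told apart in it. In the wild type 106 loci were tested, of which 3 (2.83%) were higher and 34 (32.1%) lower in the distribution experiment. Of all loci tested 45.9% were called, 23.2% higher and 22.7% lower. In eds4 7 (6.60%) were higher and 30 (28.3%) lower, where 43.3% of all loci tested were called, 22% higher and 21.2% lower. The genotypes shared 25 of these calls, 67.6% of either list, all in the same direction. Fewer were called in the wild type without replicate 2 of its total RNA, and in eds4 without replicate 1 of its total RNA. Calls over all loci fell in both cases as well.

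ndhB and ndhD were the NDH loci called in both genotypes. ndhB (ATCG00890) held 7.19 to 21.99 CPM in wild type profiling seedlings and 0.315 and 0.417 CPM in total RNA, a log2 fold change of -4.92 (SE 0.52; edgeR, adjusted p = 4.20e-05). In eds4 it held 10.4 to 16.3 CPM and 0.348 and 0.526 CPM, a log2 fold change of -4.503 (SE 0.53). ndhD (ATCG01050), another membrane subunit, held 5.07 to 14.1 CPM against 0.284 and 0.353 CPM in the wild type and 7.52 to 11.6 CPM against 0.190 and 0.351 CPM in eds4, with log2 fold changes of -4.43 (SE 0.52) and -4.83 (SE 0.55). At both loci every profiling library exceeded every library of total RNA. All 12 NDH loci had a negative value in both genotypes, and of the others ndhF at -2.17 (SE 0.63) and ndhA at -1.25 (SE 0.43) were called in the wild type. In eds4 ndhE (ATCG01070) was called (edgeR, adjusted p = 0.0109), with 0.431 to 0.642 CPM in profiling seedlings and 0 counts in total RNA, at least 9.21-fold lower. petG (ATCG00600) of the cytochrome b6f complex and psaI (ATCG00510) of photosystem I also held 0 counts in eds4 total RNA, at least 9.90-fold and 4.88-fold lower. The calls at ndhE, petG and psaI were lost without replicate 1 of eds4 total RNA, and their fitted values, which lie beyond those of ndhB and ndhD, are no bound.

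Within the rRNA operon, spacer tRNAs and 16S rRNA differed in opposite directions. The isoleucine and alanine tRNA loci trnI (ATCG00930) and trnA (ATCG00940), which lie between the 16S and 23S genes and are cut from the same precursor, held 6.92 to 33.3 and 6.87 to 33.0 CPM in wild type profiling seedlings. In wild type total RNA trnI held 0.882 and 0.738 CPM and trnA 1.01 and 1.41 CPM, with log2 fold changes of -4.14 (SE 0.67) and -3.50 (SE 0.64), and in eds4 the fold changes were -3.35 and -2.83. rrn16S (ATCG00920) was higher in total RNA, by 1.08 (SE 0.38) on the log2 scale in the wild type and 2.36 (SE 0.42) in eds4. Counts of the spacer tRNAs came to 24.7 to 54.9 per 1000 counts of 16S rRNA in the profiling experiment, 0.876 to 1.48 in total RNA and 0 to 1.19 in nuclei, so the profiling libraries stood apart.

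Some small photosystem II subunits were among the lower loci. Of 15 photosystem II loci, 8 were called lower in the wild type and 6 in eds4, beside 22.7 and 21.2% of all loci tested. A positive value was fitted at 2 in the wild type and 6 in eds4. The loci called in both genotypes are named here. psbL (ATCG00560), psbM (ATCG00220), psbJ (ATCG00550), psbK (ATCG00070), psbI (ATCG00080) and psbT (ATCG00690), single-helix subunits, had log2 fold changes of -2.79, -2.93, -2.01, -1.96, -1.72 and -1.82 in the wild type and -3.76, -2.44, -1.97, -1.94, -1.15 and -2.08 in eds4, all called. The large subunits psbA, psbB, psbC and psbD had 0.42, 0.30, -0.46 and -0.18 in the wild type and were called in neither genotype. Over the 17 protein-coding loci with 200 bp of exon or less, a length chosen after the values were seen, the median was -1.96 in the wild type and -1.94 in eds4. Over the 60 longer ones it was -0.77 and -0.67. Spearman's rho between exon length and fold change was 0.24 in the wild type and 0.11 in eds4 across 77 loci, and ndhB and ndhD have 1170 and 1521 bp of exon.

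Polymerase loci were lower as well. rpoC1 (ATCG00180), the beta-prime subunit, had log2 fold changes of -2.25 (SE 0.63) in the wild type and -3.15 (SE 0.75) in eds4, and rpoB -1.16 (SE 0.35) and -1.43 (SE 0.37). Among loci of other roles called in both genotypes, matK, an intron maturase, had -1.45 and -1.96, and ycf4, an assembly factor of photosystem I, -1.79 and -2.93. The ribosomal protein loci rps3 and rpl32 had -1.34 and -1.96 in the wild type and -1.42 and -1.94 in eds4. rbcL was called higher in eds4 total RNA at 1.07 (SE 0.34; edgeR, adjusted p = 0.0260), with 26.8 and 67.1 CPM against 24.9 to 30.7 CPM, so that the groups overlapped.

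The nuclear partners did not follow the chloroplast loci here. Of 33 partner subunits 23 were higher and 0 lower in wild type total RNA, with a median log2 fold change of 0.65. In eds4 27 were higher and 0 lower, with a median of 0.91. Of all loci tested 23.2% were higher and 22.7% lower in the wild type, and 22% and 21.2% in eds4. RBCS1A, a small subunit of Rubisco, held 10024 to 11178 CPM in wild type profiling seedlings and 17086 and 21491 CPM in total RNA. SIG5 held 12.1 and 7.09 CPM in wild type total RNA, a log2 fold change of -2.24 (SE 0.32; edgeR, adjusted p = 0.00026) from the profiling seedlings. The 8 root markers summed to 59.6 to 96.2 CPM in wild type profiling seedlings and 40.2 and 37.9 CPM in total RNA. Of them 3 were called lower, beside 22.7% of all loci tested. Their part in the chloroplast values was not tested.

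**Figure D4:**
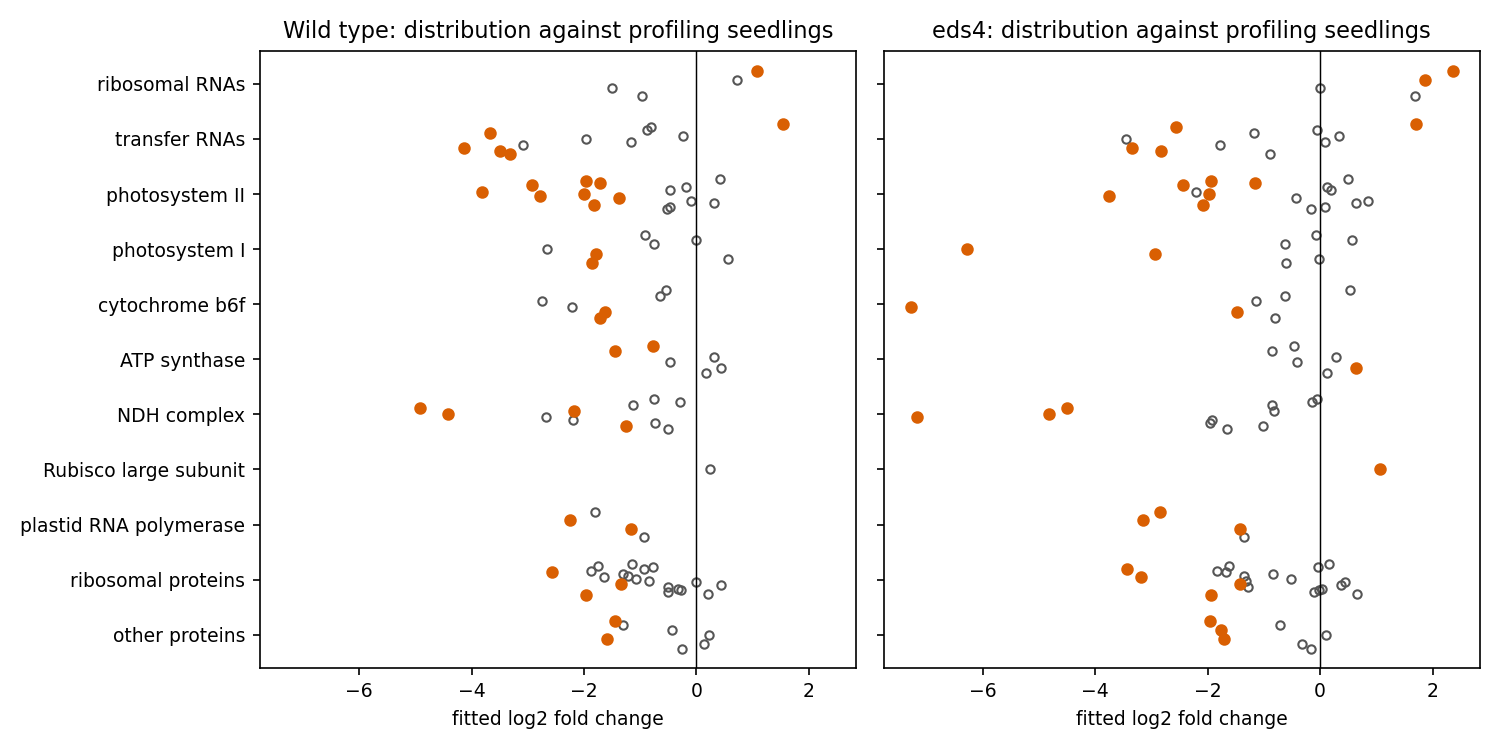
Fitted log2 fold change of whole seedlings of the distribution experiment against those of the profiling experiment for each tested chloroplast locus by role, in the wild type and in eds4, with 1 copy of each repeat pair; filled orange points had an adjusted p under 0.05 and open points did not. ndhB and ndhD lie below -4 in both genotypes, rrn16S lies above 0, and fitted values of loci with 0 counts in total RNA are no bound.

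Depth bounds what can be said of weak loci. Of the 133 loci, 119 had counts in every wild type profiling library, 37 in both wild type nuclei libraries and 15 in both nuclei libraries labelled eds4. A count of 0 in 1 library allows up to 0.0588 to 0.0805 CPM in the profiling experiment and 0.138 to 0.242 CPM in nuclei, which covers counting error only.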

How the data were processed

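The authors deposited 3 tables of raw counts per locus for 15 libraries, in which 0 columns belonged to other samples. The submitters' processing notes name TopHat2 2.1.1, SAMtools 1.3 and the TAIR10 build; no source used here names the counting program or says how multiply matching reads were entered, and the kit does not mark strand. Levels are CPM or percent of the library total. Loci were tested with edgeR 4.0.16 (quasi-likelihood test, filterByExpr, TMM scaling, Benjamini-Hochberg adjustment over all loci tested, threshold 0.05) in R 4.3.3. The 7 profiling libraries were fitted alone, the 8 distribution libraries together, and the 11 whole-seedling libraries together for the added comparison of experiments. Such scaling sets the bulk of loci to no change. Shares were compared by exact permutation over libraries. Where a group held 0 counts of a locus, a fold is a bound against a floor of 3 counts over the group. The edgeR fits were run on simulated data with 200 changed loci. The changed loci were not of low counts and the spread was fixed, so this does not cover weak loci in nuclei. DESeq2 1.42.0, other scalings and filters, and leaving out each library were alternatives.

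Loci named are the 10 with the highest mean CPM, the highest of each role, those called in the comparisons, and up to 4 nuclear partners of each list by smallest adjusted p. Loci of the added comparison were chosen after their values were seen. Members, lists and tests were chosen with earlier results of these data known. Coordinates of 123 of the 133 loci matched RefSeq's TAIR10.1 annotation. Near-identical stretches were found with blastn 2.17.0+.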

Additional observations from a re-analysis of the deposited data

Results flagged for a closer look

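The chloroplast share of counts moved in opposite directions between nuclei and total RNA in the genotypes. In the wild type both nuclei libraries lay above both libraries of total RNA, and in eds4 both lay below. The difference of the differences, eds4 minus wild type, was -3.01 percentage points for all chloroplast loci and -3.005 for the rRNA loci. EDS4 was not lower in the nuclei labelled eds4, on whose labels this direction rests. This difference was not tested. For single loci the interaction in edgeR called 0 of 66, with 15 at an unadjusted p under 0.05 beside 1252 of all 21484. DESeq2, without the filter on low counts, called 0 of 127, beside 40 of all 28308 loci. Nuclear rRNA held 2.79 and 11.2% of counts in wild type nuclei and 1.303 and 1.59% in those of eds4, and its part was not tested.

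In wild type seedlings, replicate 1 held 1.41 CPM of rps4 (ATCG00380), a small-subunit ribosomal protein, while the other 3 libraries held 0.476 to 0.537 CPM. Of 58 loci and 6 shares and ratios examined for a library standing apart in this group it was the 1 found, where chance alone marks about 1 in 20.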

How the results depend on the processing

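The chloroplast share of wild type nuclei against total RNA reversed when rRNA was set aside, to a difference of -0.0128 percentage points outside rRNA loci and -0.0135 over protein-coding loci. The share difference also reversed without wild type replicate 1 in seedlings (0.0386) and without eds4 replicate 2 in total RNA (-0.0642). Leaving out 1 library gave -0.112 to 0.0386 in seedlings, 0.630 to 3.52 in wild type nuclei against total RNA, -1.65 to -0.231 in eds4, -0.0642 to 1.35 between genotypes in total RNA and -3.81 to -0.925 in nuclei. The number of loci called then ran from 1 to 16 in wild type nuclei against total RNA, from 12 to 28 in eds4, from 0 to 1 between genotypes in nuclei, from 17 to 45 between the experiments in the wild type and from 24 to 38 in eds4, and was 0 throughout in seedlings, between genotypes in total RNA and for the interaction. In nuclei against total RNA and between the experiments, leaving 1 library in a compared group lowered the calls over all loci as well. Scaled on chloroplast loci alone, which removes a shift common to them, 5 were called in wild type nuclei and 0 in nuclei labelled eds4. On that scale psbB turned to 0.137 in nuclei labelled eds4 and atpA to 0.0360 between the experiments in the wild type. Between genotypes in nuclei DESeq2 called 9, beside 837 of all 28308 loci, and edgeR with no filter 14, beside 1167 of all 28308. With no filter 8 were called for the interaction, beside 226 of all 28308. The cause was not tested. On library totals alone, the median log2 fold change of all loci was 0.14 in wild type nuclei, 0.37 in nuclei labelled eds4, 0.14 between genotypes in nuclei, 0.17 for the interaction, and -0.31 and -0.40 between the experiments. Replicate numbers did not pair the samples throughout, with correlations of same-numbered seedling libraries of 0.51, -0.13 and 0.54. Wild type replicate 1 correlated at 0.53 with eds4 replicate 2 and at -0.69 with eds4 replicate 3. With a term for replicates 1 and 2 against 3 and 4, 868 of all 22202 loci were called between seedlings of the genotypes, against 297 without it. What sets these replicates apart was not tested. With the replicate as a block, 10 loci were called in wild type nuclei, 20 in nuclei labelled eds4, 0 between genotypes, and 33 and 32 between the experiments, and the seedling share differed by -0.0901. The low counts of nuclei limit what can be called there.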
